A study of Mus musculus with 6 samples.

Results

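The collagen family was examined in mouse mammary tumours by Affymetrix expression array. Members were the probe sets annotated to exactly 1 gene whose symbol reads Col, a number, the letter a and a number, which gave 58 of 22690 probe sets and 36 of 12393 genes that some probe set names alone. Of these 36 genes, 23 had a probe set above the dim level, a log2 value of 6.09 below which the lowest 30% of all probe set means lie, and the other 13 are given as dim.

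The arrays hold 3 Bptf KD tumours and 3 Control tumours, with 1 array per tumour. Bptf, the largest subunit of the chromatin remodelling complex NURF, was knocked down in 4T1 mouse mammary tumour cells with short hairpin RNAs carried by a retrovirus (MMLV). Either kind of cell was grown in the fourth mammary fat pad. The hosts were NSG mice, given in the labels as Ifrg2r -/-, without mature T cells, B cells or natural killer cells, and the primary tumours were taken on day 21 from both groups. What the Control cells carried, whether the Bptf KD cells were 1 clone or a pool, and how old the mice were, the sources used here do not give. Host fibroblasts, fat cells and vessels remain in such tumours, so that collagen RNA is read over tumour and host cells together, and fewer cells of a type and less RNA per cell cannot be told apart. Necrotic tissue was dissected away, where present, before RNA extraction, per the labels' protocols.

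Collagens are matrix proteins whose alpha chains wind around each other into a helix. Fibrillar chains assemble into the fibres that give tissue its tensile strength, and fibroblasts are their main source in the mammary stroma. Type IV collagen forms the sheet of the basement membrane beneath epithelium and around vessels, type VI forms beaded filaments near cells, FACIT chains sit on the surface of fibrils, and transmembrane collagens span the cell membrane.

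Promoter stretches from RefSeq are shown for 4 chains. Col3a1 and Col6a3 passed the test described below, and Col1a2 and Col5a3, which did not pass with all 6 tumours, stand beside them as fibrillar chains whose groups did not overlap. Each is the 150 bases just before the annotated start site, on the coding strand of GRCm38.p6, and capitals mark CCAAT, a common promoter element read on both strands (CCAAT or ATTGG).
Col1a2, chr6:4505468-4505617, + strand: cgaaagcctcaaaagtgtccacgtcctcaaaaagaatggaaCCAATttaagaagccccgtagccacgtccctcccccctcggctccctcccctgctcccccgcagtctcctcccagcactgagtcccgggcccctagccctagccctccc
Col3a1, chr1:45311388-45311537, + strand: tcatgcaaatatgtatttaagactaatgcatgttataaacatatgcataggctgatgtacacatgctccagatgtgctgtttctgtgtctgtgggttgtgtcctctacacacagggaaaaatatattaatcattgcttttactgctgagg
Col5a3, chr9:20815068-20815217, - strand: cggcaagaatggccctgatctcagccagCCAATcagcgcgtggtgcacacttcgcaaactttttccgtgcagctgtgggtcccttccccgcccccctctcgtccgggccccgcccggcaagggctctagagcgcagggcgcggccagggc
Col6a3, chr1:90843972-90844121, - strand: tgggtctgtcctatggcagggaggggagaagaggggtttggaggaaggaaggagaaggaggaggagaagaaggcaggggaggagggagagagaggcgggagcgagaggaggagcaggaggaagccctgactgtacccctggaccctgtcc
CCAAT stands in the stretches of Col1a2 and Col5a3, and these letters are not in those of Col3a1 and Col6a3. RefSeq windows of 300 bases (250 before the start site and 50 from it) were found for 27 of the 36 collagen genes, and 18 of these were above the dim level. Col1a1, which also passed, had no window. Col5a1, like Col1a2 and Col5a3 a fibrillar chain with groups that did not overlap, had a window without CCAAT and is not shown. The 4 chains shown are therefore a part of such chains, and no link between CCAAT and the calls can be read from them. CCAAT stood in a window of 10 of the 18, against 37.4% of all 32851 windows, and the GC box GGGCGG, read on both strands, in 12 of the 18, against 35.7% of all windows. TATAAA, likewise on both strands, stood in 1 of the 18, that of Col3a1, against 13.6% of all windows. A gene counted where any of its windows held the element, and Col18a1, Col6a2 and Col9a1 had more than 1 window. The shares are over single windows, so that counts and shares are not in the same unit. No searched element contains another, and a match describes the sequence only.

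Before the collagens, the arrays and labels were checked. The 6 arrays had median log2 values of 7.60 to 7.70. Over genes, the correlation was 0.984 to 0.988 for pairs of Bptf KD tumours and 0.986 for Controls 1 and 3, but 0.934 and 0.939 for Control 2 against the other Controls. The brightest Bptf probe set read 9.60, 9.56 and 9.99 in Bptf KD tumours 1, 2 and 3, against 10.69, 9.77 and 10.59 in Controls 1, 2 and 3. Its difference of -0.63 did not pass the test (limma adjusted p = 0.426 over all probe sets). On the other 3 Bptf probe sets Control 2 lay below every Bptf KD tumour. Without Control 2, 3 of the 4 Bptf probe sets were called lower, at -0.92, -1.43 and -1.71 (limma adjusted p = 0.0386, 0.0357 and 0.00463), and the last differed by -0.48 (limma adjusted p = 0.0570). The target therefore goes against the label in that tumour, which is written below as the tumour labelled Control 2. It counts as a Control in each direction given, except where a value is said to be without it. All 8 epithelial markers were above the dim level in the mean over the arrays, Epcam among them, as the label of a mammary tumour asks.

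The collagens were compared by asking which chains differ in RNA level when 4T1 tumours grow with less Bptf. Col1a1, Col3a1 and Col6a3 fell, and 0 of the 23 collagen genes rose, at a limma adjusted p below 0.05 over all 9248 genes. Of all genes tested 0.811% were called, 0.660% lower and 0.151% higher. Of the 23, 19 had a negative difference, against 39.8% of all genes, and the median difference was -0.39, against 0.06 over all genes. Without an adjustment, 11 were lower and 0 higher at p below 0.05, where 5.82% of all genes were lower and 7.66% higher. In 13 of the 23 every Bptf KD tumour lay below every Control, against 8.17% of all genes, and in 0 did every Bptf KD tumour lie above, against 11.8% of all genes. By class, the median difference was -0.94 in the 6 fibrillar genes, -0.545 in the 4 network genes, -0.23 in the 6 FACIT genes and -0.09 in the 6 basement membrane genes. Without the tumour labelled Control 2 it was -1.19 in the fibrillar, -0.71 in the network, -0.21 in the FACIT and -0.35 in the basement membrane genes, so that the order of the FACIT and basement membrane classes turned. Since the probe set filter used the mean of all 6 arrays and left out 13 genes, these counts describe the brighter members alone.

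The number of collagen genes called by limma was 8 without the tumour labelled Control 2, and 0 without any other single tumour (Bptf KD 1, 2 or 3, or Control 1 or 3). In each of these last 5 cases 11 collagen genes were lower at an unadjusted p below 0.05, where 4.07% to 6.47% of all genes were lower. Without Control 1, Col4a5 was also higher at that p, where 7.68% of all genes were higher. Over all genes, limma called 73 without Control 1, 10 without Control 3, and 2, 6 and 0 without Bptf KD 1, 2 and 3. Without the tumour labelled Control 2, the 8 were Col1a1, Col1a2, Col3a1, Col5a1, Col5a3, Col6a2, Col6a3 and Col15a1, the median was -0.58, and 2.52% of all genes were called lower and 1.94% higher, 4.46% together.

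**Figure D1:**
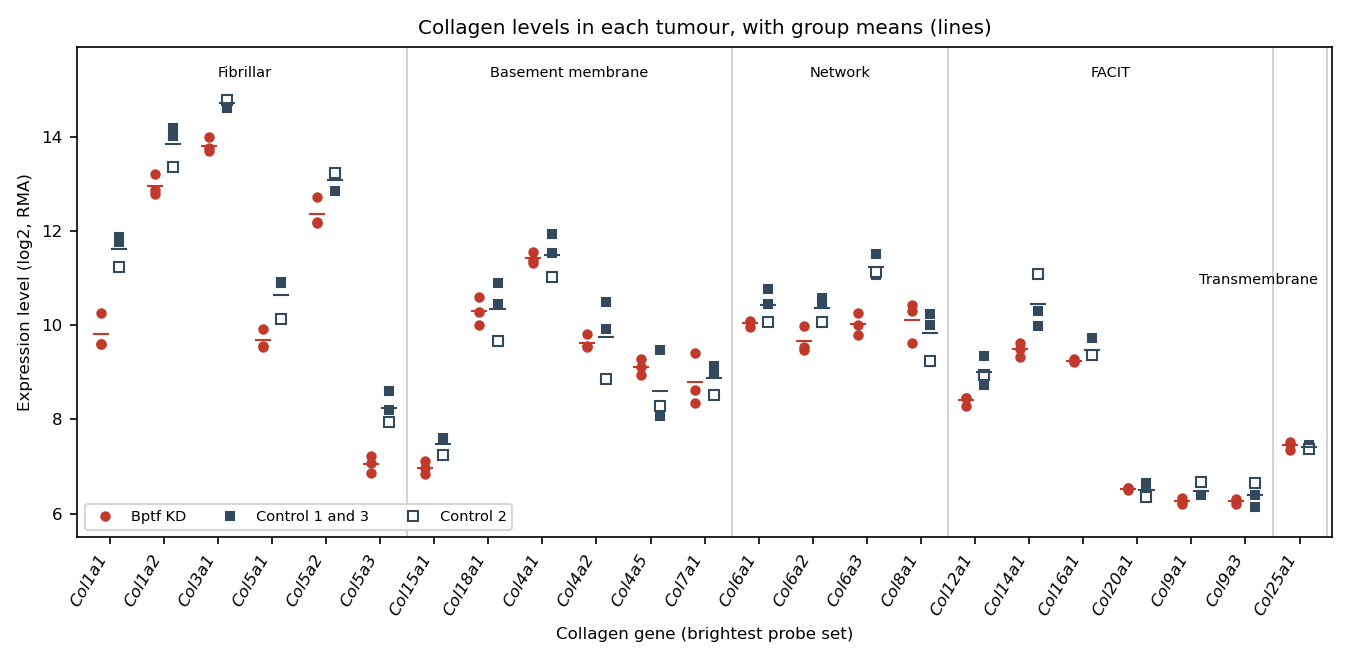
Log2 RMA level (y axis) of the 23 collagen genes above the dim level, by class, in each Bptf KD tumour (circles) and each Control tumour (squares, with the tumour labelled Control 2 open). Lines are group means, and the circles lie below all squares for the 6 fibrillar chains.

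Col1a1 had the lowest difference of the collagen genes above the dim level. Col1a1, the alpha 1 chain of type I collagen and the main protein of stromal fibres, read 9.59, 9.59 and 10.25 in Bptf KD tumours, against 11.76, 11.23 and 11.87 in Controls. The groups stood well apart, with Bptf KD 3 the highest of its group and the tumour labelled Control 2 the lowest of its own. The means were 9.81 ± 0.38 in Bptf KD and 11.62 ± 0.34 in Control tumours (SD, n = 3 each), a difference of -1.81 (SE 0.25, limma adjusted p = 0.0434), or 3.51-fold lower. Its partner in the type I molecule, Col1a2, read 12.87, 12.78 and 13.21 in Bptf KD tumours, against 14.01, 13.36 and 14.18 in Controls. Here too the groups did not overlap, but the tumour labelled Control 2 lay close to Bptf KD 3, and the difference of -0.90 (SE 0.24) did not pass (limma adjusted p = 0.1805). Without that tumour it was -1.14 and passed (limma adjusted p = 0.0202).

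Col3a1, the single chain of type III collagen, which mixes with type I in the fibres of soft tissue, fell as well. It read 13.69, 13.76 and 13.98 in Bptf KD tumours, against 14.60, 14.77 and 14.79 in Controls, so that the groups were clearly separate and each was tight. The means were 13.81 ± 0.15 in Bptf KD and 14.72 ± 0.10 in Control tumours (SD, n = 3 each), a difference of -0.91 (SE 0.13, limma adjusted p = 0.0434), or 1.88-fold lower. These values lie near the top of the scale, which ended between 15.08 and 15.17 on the 6 arrays.

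The chains of type V collagen, which regulates the diameter of type I fibrils, were lower in every Bptf KD tumour than in every Control, without passing. Col5a1 read 9.56, 9.54 and 9.92 in Bptf KD tumours, against 10.89, 10.12 and 10.92 in Controls (difference -0.97, SE 0.24, limma adjusted p = 0.159). Col5a2 read 12.19, 12.71 and 12.17 in Bptf KD tumours, against 12.84, 13.22 and 13.17 in Controls (difference -0.72, SE 0.19, limma adjusted p = 0.181). Col5a3, a chain found in some type V molecules, read 6.86, 7.07 and 7.22 in Bptf KD tumours, against 8.19, 7.95 and 8.61 in Controls (difference -1.20, SE 0.20, limma adjusted p = 0.0544). In all 3 genes the groups stood apart, and the adjusted p of Col5a3 was just above the threshold. Without the tumour labelled Control 2, Col5a1 (-1.23, limma adjusted p = 0.0129) and Col5a3 (-1.35, limma adjusted p = 0.0160) passed and Col5a2 did not (-0.65, limma adjusted p = 0.103). The remaining fibrillar genes, Col2a1, Col11a1 and Col11a2, chains of cartilage collagens, were dim, with differences from -0.34 to -0.05.

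**Figure D2:**
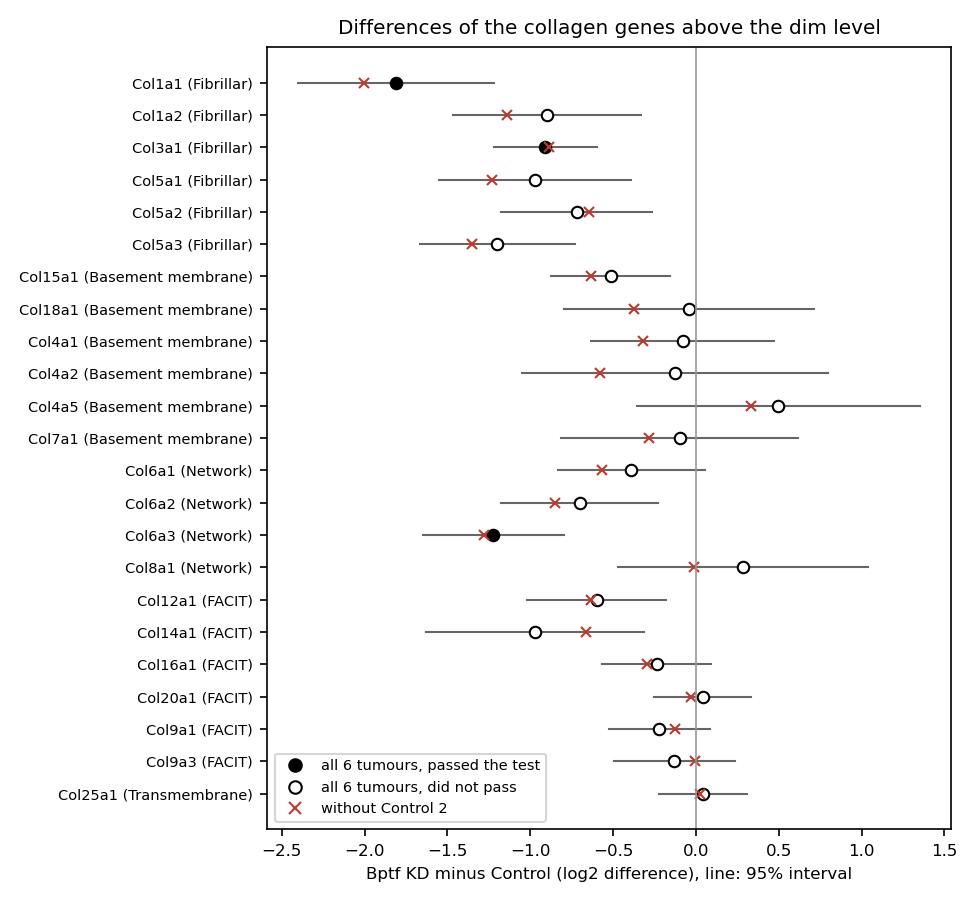
Log2 difference, Bptf KD minus Control, of the 23 collagen genes (x axis), with 95% intervals from limma. Filled circles are Col1a1, Col3a1 and Col6a3, which passed the test, open circles the other 20, and crosses the difference without the tumour labelled Control 2.

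Among the network collagens, 1 chain of type VI fell and the type VIII chain had a positive difference that did not pass. Col6a3, the largest chain of type VI collagen, read 9.79, 10.00 and 10.25 in Bptf KD tumours, against 11.07, 11.13 and 11.51 in Controls. The gap between the nearest tumours was wider than the spread within either group. The means were 10.01 ± 0.23 in Bptf KD and 11.24 ± 0.24 in Control tumours (SD, n = 3 each), a difference of -1.22 (SE 0.18, limma adjusted p = 0.0434), or 2.33-fold lower. The chains that join it in the same filament had smaller differences. Col6a2 read 9.47, 9.54 and 9.99 in Bptf KD tumours, against 10.58, 10.07 and 10.45 in Controls (difference -0.70, SE 0.20, limma adjusted p = 0.205). Col6a1 read 9.95, 10.09 and 10.07 in Bptf KD tumours, against 10.76, 10.07 and 10.45 in Controls (difference -0.39, SE 0.19, limma adjusted p = 0.434). In Col6a2 the groups stood apart by a narrow gap, and in Col6a1 the tumour labelled Control 2 lay among the Bptf KD tumours. Without it, Col6a2 passed (-0.85, limma adjusted p = 0.0486) and Col6a1 did not (-0.57, limma adjusted p = 0.0639). Col8a1, a short-chain collagen of vessel walls, read 10.42, 9.61 and 10.29 in Bptf KD tumours, against 10.23, 9.23 and 10.01 in Controls, with overlapping groups (difference 0.28, 95% interval -0.47 to 1.04, limma adjusted p = 0.770). Col10a1, a chain of hypertrophic cartilage, was dim, at a difference of 0.02.

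Of the 6 basement membrane genes above the dim level 0 were called by limma. At an unadjusted p below 0.05, 1 was lower, Col15a1, where 5.82% of all genes were lower. The intervals of the other 5 included 0 and were wide. Col4a1, which with Col4a2 makes the common type IV molecule, read 11.39, 11.31 and 11.54 in Bptf KD tumours, against 11.93, 11.02 and 11.53 in Controls (difference -0.08, 95% interval -0.63 to 0.47, limma adjusted p = 0.924). Col4a2 read 9.56, 9.53 and 9.80 in Bptf KD tumours, against 10.50, 8.85 and 9.92 in Controls (difference -0.13, 95% interval -1.05 to 0.80, limma adjusted p = 0.927). In both genes the tumour labelled Control 2 was the lowest of the 6 and Control 1 the highest, and the Bptf KD tumours lay between them. A 2-fold fall of Col4a2 lies inside its interval and cannot be told from no change here. Without the tumour labelled Control 2 the differences were -0.32 and -0.58 and did not pass (limma adjusted p = 0.227 for Col4a1 and 0.117 for Col4a2). Col4a1 and Col4a2 lie head to head on chromosome 8 of GRCm38.p6. Their annotated start sites are 21 bases apart, each inside the other gene, so that the annotated 5-prime ends overlap.

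Col4a5, a chain of more specialised basement membranes, had the highest difference of the family. It read 9.10, 9.27 and 8.94 in Bptf KD tumours, against 9.48, 8.28 and 8.06 in Controls, so that Control 1 lay above every Bptf KD tumour and the other Controls below them (difference 0.50, 95% interval -0.36 to 1.35, limma adjusted p = 0.634). Its head-to-head neighbour on chromosome X, Col4a6, was dim on both probe sets. Col15a1 and Col18a1 are multiplexins, collagens that carry sugar chains and link the basement membrane to the matrix. Col15a1 read 6.96, 6.83 and 7.11 in Bptf KD tumours, against 7.59, 7.24 and 7.61 in Controls (difference -0.51, SE 0.15, limma adjusted p = 0.215; without the tumour labelled Control 2, -0.63, adjusted p = 0.0414). Its groups did not overlap, while those of the other 5 basement membrane genes above the dim level did. Col18a1, the source of the fragment endostatin, read 10.01, 10.28 and 10.59 in Bptf KD tumours, against 10.89, 9.67 and 10.45 in Controls (difference -0.04, 95% interval -0.80 to 0.71, limma adjusted p = 0.974). Col7a1, the anchoring fibril chain of skin, read 8.62, 8.34 and 9.40 in Bptf KD tumours, against 9.14, 8.51 and 9.0 in Controls (difference -0.10, 95% interval -0.81 to 0.62, limma adjusted p = 0.927). The groups overlapped in Col18a1 and in Col7a1. Col4a3 and Col4a4, chains of the kidney filter, were dim, at -0.09 and -0.06.

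Of the 6 FACIT genes above the dim level, 4 were lower in every Bptf KD tumour than in every Control (Col14a1, Col12a1, Col16a1 and Col9a1), against 8.17% of all genes. In this class 0 were called by limma, with 2 lower at an unadjusted p below 0.05, where 5.82% of all genes were lower. Col14a1, which binds fibrils in skin and tendon, read 9.32, 9.50 and 9.63 in Bptf KD tumours, against 9.99, 11.08 and 10.30 in Controls (difference -0.97, SE 0.28, limma adjusted p = 0.205). In contrast to most chains it was highest in the tumour labelled Control 2, and its difference without that tumour was -0.66 (limma adjusted p = 0.0583). Col12a1, a related chain on type I fibrils, read 8.29, 8.46 and 8.45 in Bptf KD tumours, against 8.73, 8.93 and 9.34 in Controls (difference -0.60, SE 0.18, limma adjusted p = 0.215). Col16a1 read 9.24, 9.28 and 9.21 in Bptf KD tumours, against 9.72, 9.36 and 9.36 in Controls (difference -0.24, limma adjusted p = 0.540). Col16a1 was separate by a narrow gap only. The cartilage chains Col9a1 (6.27 ± 0.07 in Bptf KD and 6.49 ± 0.16 in Control tumours, difference -0.22) and Col9a3 (6.26 ± 0.05 and 6.39 ± 0.26, difference -0.13; SD, n = 3 each) lay just above the dim level, as did Col20a1 (6.53 ± 0.02 in Bptf KD and 6.49 ± 0.15 in Control tumours, difference 0.04), and none of these 3 passed (limma adjusted p 0.535 to 0.927). Col9a2, Col19a1 and Col22a1 were dim.

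The transmembrane chains were low or level. Col25a1, a neuronal collagen and the member of the class above the dim level, read 7.48, 7.35 and 7.51 in Bptf KD tumours, against 7.46, 7.37 and 7.38 in Controls (difference 0.04, 95% interval -0.22 to 0.31, limma adjusted p = 0.911). Col17a1, the hemidesmosome collagen of basal epithelium, was dim and read 5.17, 5.23 and 5.04 in Bptf KD tumours, against 5.55, 6.69 and 5.32 in Controls (difference -0.71, limma adjusted p = 0.5065 over all probe sets). Every Bptf KD tumour lay below every Control, and the tumour labelled Control 2 stood far above the rest. There the keratinocyte list, 5 genes above the dim level of 9 with a probe set, averaged 9.65. Its mean was 7.14 to 7.24 in Bptf KD tumours and 6.85 and 7.08 in the other Controls. The filter used the mean of all 6 arrays, that tumour included. Krt15, named after its values were seen, read 7.23 there and 5.57 to 6.20 in the other tumours. It passed the filter only through that tumour. The part of the keratinocyte genes in the Col17a1 level was not tested. Col13a1 was dim at -0.23, and Col26a1, outside these classes, at -0.10.

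All 58 probe sets were then read in a fit over 22626 probe sets, in which 1 collagen probe set was called, lower, where 0.208% of all probe sets were called, 0.194% lower and 0.0133% higher. It was the dimmer probe set of Col3a1, which read 10.28, 10.43 and 10.53 in Bptf KD tumours, against 11.95, 12.47 and 12.40 in Controls (difference -1.86, SE 0.16, limma adjusted p = 0.0194). Without the tumour labelled Control 2, 12 collagen probe sets were called, all lower, where 2.40% of all probe sets were called, 1.48% lower and 0.919% higher. Every Bptf KD tumour lay below every Control in 25 of the 58, against 8.15% of all probe sets, and above in 1, a dim probe set of Col5a3, against 9.81%. A negative difference was found in 45 of the 58, against 45.1% of all probe sets. Of the 36 collagen probe sets above the dim level 29 had a negative difference, among them 12 of 12 fibrillar ones, 6 of 9 of the basement membrane, 4 of 6 of the networks and 7 of 8 FACIT ones. The dim level was read on the mean of all 6 arrays, and the dimmer Col9a1 probe set, counted here, exceeded it only through its Control values. The 22 dim probe sets read 3.17 to 5.96 in Bptf KD and 3.23 to 6.69 in Control tumours, with differences from -0.71 to 0.16 (limma adjusted p 0.320 to 0.980).

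**Figure D3:**
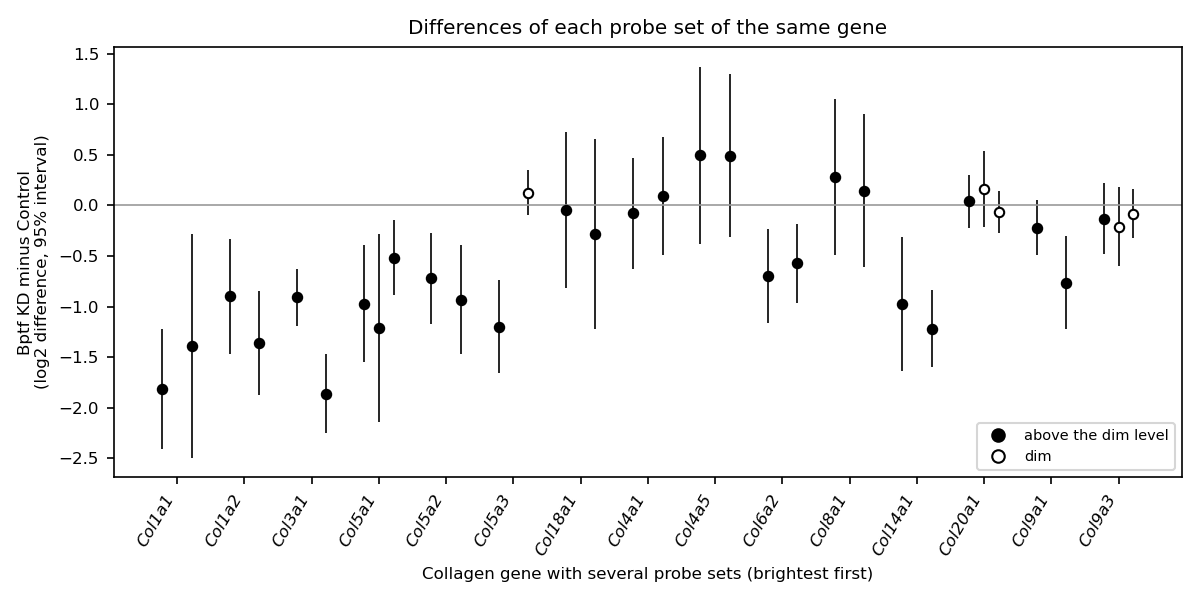
Log2 difference, Bptf KD minus Control, with 95% interval (y axis), of each probe set of the collagen genes above the dim level that have several probe sets, brightest first. Dim probe sets are open, and the Col3a1 pair differs the most among filled points of the same gene, at -0.91 and -1.86.

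Probe sets of the same gene gave the same direction in most cases but not the same size. In 12 genes with at least 2 probe sets above the dim level, 13 pairs were compared by the gap between them on each array. The gap differed between the groups with no overlap in 5 pairs (exact two-sided permutation p = 0.1, the smallest that 3 against 3 tumours allow, and 0.26 after Benjamini-Hochberg adjustment over the 13). For Col3a1 the brighter probe set lay 3.41, 3.33 and 3.45 above the other in Bptf KD tumours, against 2.65, 2.30 and 2.39 in Controls. For Col1a2 the gap was 1.68, 1.46 and 1.49 in Bptf KD tumours, against 1.32, 0.88 and 1.04 in Controls, and the dimmer probe set had the larger difference (-1.36 against -0.90). In Col3a1 and Col1a2 the brighter probe set showed the smaller difference, as in Col9a1. In the other 2 of the 5 pairs it showed the larger one, at -0.97 against -0.52 in a pair of Col5a1 and 0.28 against 0.15 in Col8a1. The second Col1a1 probe set read 7.42, 7.28 and 7.88 in Bptf KD tumours, against 9.48, 7.82 and 9.44 in Controls, where the tumour labelled Control 2 lay among the Bptf KD tumours (difference -1.39, limma adjusted p = 0.313; without that tumour -1.93, adjusted p = 0.00963). Col14a1 differed by -0.97 on its brighter and -1.22 on its other probe set, Col9a1 by -0.22 and -0.76, and Col4a1 by -0.08 and 0.09, with a change of sign near 0.

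Genes that act on collagen were read in 4 lists. Of 18 measured genes of collagen folding and modification in the endoplasmic reticulum, 0 were called by limma, 0 had an unadjusted p below 0.05, and the median difference was 0.02 (-0.07 without the tumour labelled Control 2). The smallest p in this list was that of P4ha2, a prolyl hydroxylase subunit (0.29, limma adjusted p = 0.571), followed by Serpinh1, the collagen chaperone (-0.20), P3h1 (-0.20) and P4ha1 (0.55). Among 12 measured genes of processing and crosslinking the median was -0.19 and 1 fell, Dcn, the proteoglycan decorin that binds fibrils (-1.70, SE 0.22, limma adjusted p = 0.0385). The crosslinking lysyl oxidases Loxl1 and Lox, whose groups did not overlap, differed by -1.04 and -1.0 and missed the threshold (limma adjusted p = 0.0544 and 0.0712). Lum, the proteoglycan lumican, differed by -1.40 (limma adjusted p = 0.161). Without the tumour labelled Control 2, 3 of the 12 were called lower, where 2.52% of all genes were. Loxl1 and Lox were among them (limma adjusted p = 0.0336 and 0.0431).

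The median of 9 measured collagen-degrading genes was -0.83 (-0.64 without the tumour labelled Control 2), against 0.06 over all genes. Of the 9, 2 fell, where 0.660% of all genes were called lower. They were Mmp3, stromelysin 1, at 10.22, 10.34 and 10.27 in Bptf KD tumours, against 11.49, 11.44 and 12.12 in Controls (difference -1.41, limma adjusted p = 0.0434), and Mmp2, gelatinase A, at 9.53, 9.42 and 9.64 in Bptf KD tumours, against 10.52, 10.90 and 11.11 in Controls (difference -1.31, limma adjusted p = 0.0392). Both stood clear of the Controls in every Bptf KD tumour. The fibroblast protease Fap (-0.83) and the gelatinase Mmp9 (-1.13) did not pass. Of 6 measured collagen receptors 0 were called by limma, with a median of 0.05 (-0.02 without the tumour labelled Control 2). At an unadjusted p below 0.05, 1 of them was lower, where 5.82% of all genes were. Mrc2, which takes up collagen, differed by -0.46, the discoidin receptors Ddr1 and Ddr2 by 0.26 and -0.35 and Lair1, an inhibitory receptor of leukocytes, by 0.39.

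The collagen classes were set beside marker genes of the cells that could supply them. The mean of the 6 fibrillar genes was 10.79, 10.91 and 11.13 in Bptf KD tumours, against 12.05, 11.78 and 12.26 in Controls. The mean of 15 fibroblast genes other than collagens was 9.86, 10.09 and 9.92 in Bptf KD tumours, against 10.68, 11.01 and 10.96 in Controls. Both sets separated the groups. The fibroblast list had a negative difference in 15 of 15 genes, against 39.8% of all genes, with a median of -0.77. The differences were uneven, and the groups overlapped in 3 genes, named after their values were seen: Fbln2 (-0.74), Pdgfra (-0.24) and Vim (-0.12). Of this list 2 fell, where 0.660% of all genes were called lower. They were Dcn, and Dpt, the fibril-binding protein dermatopontin (-2.38, limma adjusted p = 0.0434). Serpinf1, the secreted factor PEDF, differed by -0.77 without passing. Dcn and Lum are also on the processing list and Fap on the degrading list. The part of the fibroblast genes in the collagen result was not tested.

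The basement membrane set did not separate the groups, at 9.27, 9.26 and 9.56 in Bptf KD tumours, against 9.92, 8.93 and 9.43 in Controls. Nor did the list of 9 endothelial genes, at 7.72, 7.63 and 7.69 in Bptf KD tumours, against 7.90, 7.49 and 7.66 in Controls, with a median difference of 0.09. Without the tumour labelled Control 2 it was -0.07, with 1 called lower and 1 higher, where 2.52% and 1.94% of all genes were. With all 6 tumours 1 gene of the list fell, where 0.660% of all genes were called lower. It was Tek, an angiopoietin receptor (-1.30, limma adjusted p = 0.00987), while Cldn5 differed by 0.76 and Emcn by 0.44. Tek read 5.65, 5.66 and 5.63 in Bptf KD tumours, below the dim level, against 6.99, 6.79 and 7.06 in Controls. Tek passed the filter only through its Control values. The network set read 9.91, 9.81 and 10.15 in Bptf KD tumours, against 10.66, 10.13 and 10.61 in Controls, and the FACIT set 7.67, 7.71 and 7.71 in Bptf KD tumours, against 7.98, 8.17 and 8.0 in Controls. In the network set the tumour labelled Control 2 lay below Bptf KD 3, and in the FACIT set it was the highest. No test was made of the difference between classes.

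**Figure D4:**
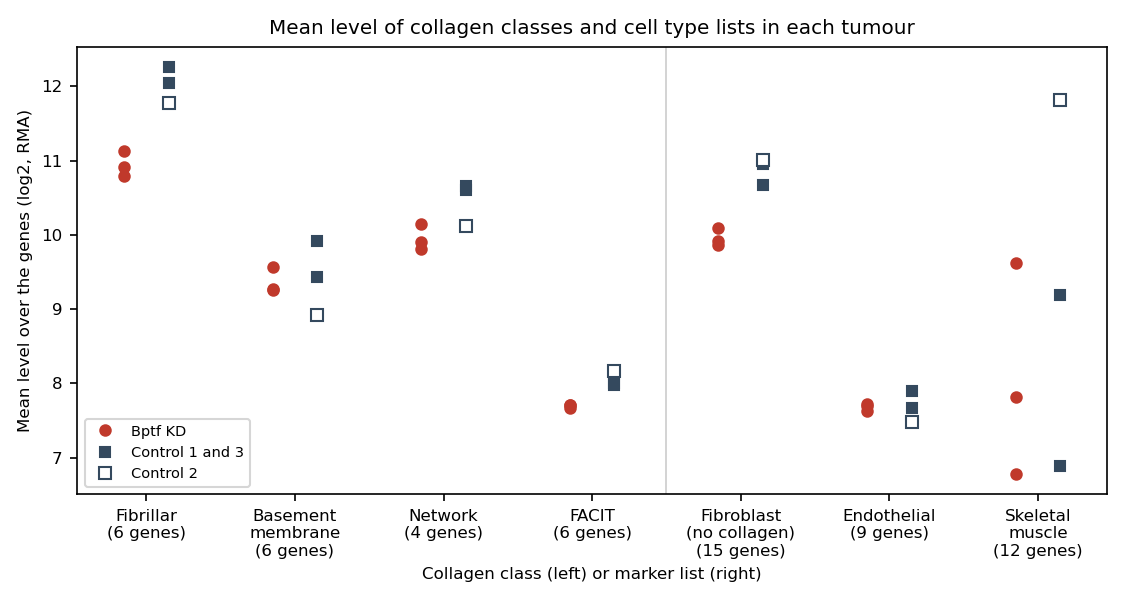
Mean log2 RMA level (y axis) of 4 collagen classes and 3 marker lists in each Bptf KD tumour (circles) and Control tumour (squares, the tumour labelled Control 2 open). The fibrillar, FACIT and fibroblast sets separate the groups, and the skeletal muscle list singles out the tumour labelled Control 2.

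Lists of other cell types were read beside these. All 9 adipocyte genes were negative, against 39.8% of all genes, with a median of -2.85. Of the 9, 6 were called lower, Cidec among them, where 0.660% of all genes were called lower. Car3 had the smallest p of the list (-3.66, limma adjusted p = 0.00364), while Cidec (-3.68, limma adjusted p = 0.0154) and Adipoq (-4.65, limma adjusted p = 0.159), the second of which did not pass, had lower differences and are named after their values were seen. The adipocyte mean was 6.85 to 7.89 in Bptf KD and 9.95 to 10.84 in Control tumours. Cidec, Lep and Pparg, named after their values were seen, lay below the dim level in every Bptf KD tumour. Their Bptf KD means were 5.34, 5.25 and 5.67, and they passed the filter only through their Control values. The 12 skeletal muscle genes averaged 6.78 to 9.63 in Bptf KD tumours, against 9.19, 11.81 and 6.89 in Controls, with 0 called, 0 at an unadjusted p below 0.05 and a median of -1.27 (0.08 without the tumour labelled Control 2). The 8 epithelial genes averaged 11.18 to 11.26 in Bptf KD and 10.11 to 10.98 in Control tumours, with 0 called and a median of 0.60. At an unadjusted p below 0.05, 3 of them were higher, where 5.82% of all genes were lower and 7.66% higher. Of 8 pericyte and smooth muscle genes 0 were called by limma (median -0.18, with 2 lower and 1 higher unadjusted, beside the same shares). Of 8 macrophage genes 0 were called (median 0.15, with 2 lower and 2 higher unadjusted, beside the same shares). Of 5 keratinocyte genes 0 were called (median -0.68, with 0 unadjusted). Both medians changed sign without the tumour labelled Control 2. That of the macrophage genes was -0.06, with 1 called lower, where 2.52% of all genes were. For keratinocyte genes it was 0.32, with 0 called. Of these, 1 was lower and 2 higher unadjusted, where 11% of all genes were lower and 16% higher. In the cartilage and bone list 2 of 8 genes were above the dim level, with 0 called and 0 unadjusted. The control probe sets of Actb were 0.92, 1.05 and 0.76 brighter at the 3-prime than at the 5-prime end in Bptf KD tumours, against 0.76, 1.23 and 0.77 in Controls, so that this sign of RNA quality was largest in the tumour labelled Control 2. The same gap for Gapdh was small on every array, at -0.04, -0.04 and 0.04 in Bptf KD tumours and -0.06, 0.06 and -0.08 in Controls. The part of these lists and of RNA quality in the collagen result was not tested. A fit with the mean of the muscle list as a covariate was among the alternative settings. It called 3 collagen genes lower, Col1a1, Col5a3 and Col6a3, and 49 of all 9248 genes, 41 of them lower. In that fit Col3a1 missed the threshold (limma adjusted p = 0.0867).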

How the data were processed

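RNA from 3 Bptf KD and 3 Control tumours was measured on 1 array each. The deposited values are log2 expression made by the authors with RMA (background correction, quantile normalisation, probe set summary), per the submitters' processing notes, with no version given. The log base was taken as 2 from the range of the values. GEO's platform annotation named 1 gene for 20380 probe sets, several for 691 and none for 1555, and 64 were the manufacturer's controls. Symbols were matched by Entrez identifier to RefSeq (GRCm38.p6). No symbol changed.

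A gene was read from its brightest probe set (highest 6-array mean), and means in the lowest 30% (log2 6.09) were left out, which left 9248 genes. limma 3.58.1 in R 4.3.3 (lmFit, eBayes) compared Bptf KD with Control, with Benjamini-Hochberg adjustment over all genes tested and a threshold of 0.05. A second fit took all 22626 probe sets that are not controls, without a filter. Differences are log2 Bptf KD minus Control. The number of arrays limits the precision, and RMA gives no detection call. The labels speak of biological triplicates, but the sources used here do not say that each tumour had a mouse to itself. If it did not, p-values measure the spread between these samples, which may be technical. The fits were tested on simulated data.

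Named genes were every collagen gene, Bptf, up to 4 genes with the smallest p of each list of collagen-related genes and all that were called, and up to 3 of the cell type lists. The members and lists were chosen with earlier results of these data known. Alternatives were other dim filters, other probe set rules, median centring, a second quantile normalisation, trend and robust eBayes, weights per array, a block for replicate number, the muscle list as a covariate and leaving out each tumour. Classes were fixed by textbook type, with types VII, XV and XVIII put with the basement membrane and type VI with the networks.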

Additional observations from a re-analysis of the deposited data

How the results depend on the processing

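The 3 collagen calls depended on the arrays used. Leaving out each tumour in turn gave 0 to 8 called collagen genes, 0 to 12 called collagen probe sets, 0 to 412 called genes, 0 to 543 called probe sets and a collagen median of -0.58 to -0.27. Leaving out the tumour labelled Control 2 gave the highest counts. When arrays were weighted, limma warned that convergence was not reached and gave the tumour labelled Control 2 a weight of 0.15 and Control 3 a weight of 4. Then 12 collagen genes, 22 collagen probe sets, 1676 genes and 3175 probe sets were called, with 690 lower and 986 higher genes. The stricter filter gave 42 called genes and a collagen median of -0.60, no filter a median of -0.175, the probe set with the largest SD a median of -0.60, and the muscle covariate 49 called genes. For collagen probe sets, median centring and the trend and robust setting each called 2, against 1. The causes were not tested.

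Every collagen call in any alternative was of a lower gene. Col1a1 missed the threshold with the mean of its probe sets (limma adjusted p = 0.103). Signs turned for 7 genes whose difference did not pass. Col18a1 (-0.38 to 0.23 over the tumours left out) was 0.10 without Bptf KD 1, 0.23 without Control 1 and 0.01 without Control 3. Col4a1 (-0.32 to 0.14) was 0.01 with the mean of its probe sets, 0.09 with the probe set of largest SD and 0.14 without Control 1. Col4a2 (-0.58 to 0.245) was 0.245 without Control 1. Col7a1 (-0.40 to 0.13) was 0.13 without Bptf KD 2 and 0.03 without Control 1. Without the tumour labelled Control 2, Col20a1 was -0.03 (range -0.03 to 0.12) and Col8a1 -0.013 (range -0.013 to 0.53), and with array weights Col9a3 was 0.079.

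The replicate numbers in the titles are not said to pair tumours. Deviations of same-numbered tumours correlated at 0.005, 0.279 and 0.372, against -0.445 to 0.353 for tumours with different numbers. With the replicate number as a block, 4 collagen genes (Col5a3 added) and 4 collagen probe sets were called. Over all features 107 genes and 77 probe sets were called, against 75 and 47 without the block. Col5a3 also passed with median centring and with a second quantile normalisation, where 84 and 64 genes were called.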

Other observations

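The tumour labelled Control 2 also differed from Controls 1 and 3 in its collagens. It lay below their mean in 18 of the 23 collagen genes, where 47.3% of all genes did, including 6 of 6 of the basement membrane and 4 of 4 of the networks. The largest gaps were those of Col4a2 (-1.36), Col18a1 (-1.0), Col8a1 (-0.89) and Col5a1 (-0.79), while Col14a1 (0.94), Col9a3 (0.38), Col9a1 (0.28), Col5a2 (0.22) and Col3a1 (0.08) were higher there. Single tumours have no replicate, so no test was made. These genes were chosen after their values were seen.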
